A study of Mus musculus with 2 samples.

Results

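The 64 protein-coding genes described here belong to the transforming growth factor beta (TGF-beta) and bone morphogenetic protein (BMP) pathways. The rule that chose them used gene symbols and no measured value, from 43346 genes measured: the Tgfb, Tgfbr, Bmp, Bmpr, Acvr, Gdf, inhibin, Smad, Id and Ltbp families, with further modulators such as Eng, Grem1, Nog, Bambi, Fst, Fstl3 and Tmem100. Of 65 symbols in the reference annotation that fit this rule, Gdf1 was not analysed here. The RNA came from whole lung of a single adult mouse, a 10-week-old C57BL/6J female for which the labels name no engineered allele and no treatment. Its polyadenylated RNA was made into 2 libraries, which the labels call technical replicates 1 and 2 of the same biological replicate, replicate 2 having been performed later. Whether a common RNA extraction served both is not stated in the labels. There is 1 group and no second condition, so the values are the level of each gene and how far the libraries differed. Every SD is over n = 2 libraries of 1 animal and measures technical spread only, and with 1 library on each side no p-value is given.

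TGF-beta family ligands are secreted dimers that bring together type I and type II receptor kinases at the cell surface. TGF-beta and activin receptors mainly phosphorylate Smad2 and Smad3, BMP receptors phosphorylate Smad1, Smad5 and Smad9, and these join Smad4 to act on genes in the nucleus, the Id genes being well-known BMP targets. TGF-beta is secreted in a latent form bound to latent TGF-beta binding proteins in the matrix. In lung, the pathways are known for their part in branching, fibrosis and the pulmonary vessels, and mutations in human BMPR2, ACVRL1 and ENG cause inherited vascular disease.

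The libraries held 16104423 and 17110871 expected counts, which are estimates of reads per gene, here rounded. Levels are given as TPM, the authors' unit of transcripts per 1000000, which allows for gene length. Where a pair of values stands without a library, replicate 1 comes first. Because TPM sums to a fixed total, a very abundant gene lowers all others: Scgb1a1, the club cell secretoglobin, held 17498 and 174257 TPM. All 17 markers of lung cell types were found in at least 1 library above a TPM of 20. Among the 3 endothelial markers, Pecam1 was at 74.4 and 219 TPM, Cdh5 at 105 and 143 TPM and Cldn5 at 0.43 and 607 TPM in replicates 1 and 2, so the label lung holds, with large differences between the libraries. Markers of liver, skeletal muscle and neurons stayed below 2 TPM. The adipocyte marker Adipoq was at 100 and 90.1 TPM, and the atrial muscle markers Myl7 and Nppa were at 18.5 and 465 TPM and at 4.04 and 68.4 TPM. In RNA of whole tissue, fewer cells of a type and less RNA per cell cannot be told apart.

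Most of the pathway was expressed in this lung. At a TPM of at least 1, 40 of the 64 genes (62.5%) were detected in both libraries, beside 10713 of 21474 protein-coding genes (49.9%). Another 3 reached that level in replicate 1 alone and 5 in replicate 2 alone, and 16 in neither. Together the 64 genes held 2535 and 2068 TPM, a mean of 2302 ± 330 TPM (SD, n = 2). Much of this was Tmem100, an endothelial transmembrane protein induced by BMP signalling through ALK1, and without it the sums were 1473 and 1754 TPM. Both libraries put Tmem100 first, but of the 10 highest genes in each only 5 were shared: Tmem100, Id1, Id2, Bmpr2 and Tgfbr2. Across the 64 genes, log2(TPM + 1) had a Pearson correlation of 0.71 between the libraries, and the Spearman correlation of TPM was 0.73. Over the 44 genes whose mean TPM reached 1 the Spearman correlation was 0.30. These are descriptions across genes measured in the same 2 libraries. The plot of levels by gene shows how far apart the libraries placed many members.

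**Figure D1:**
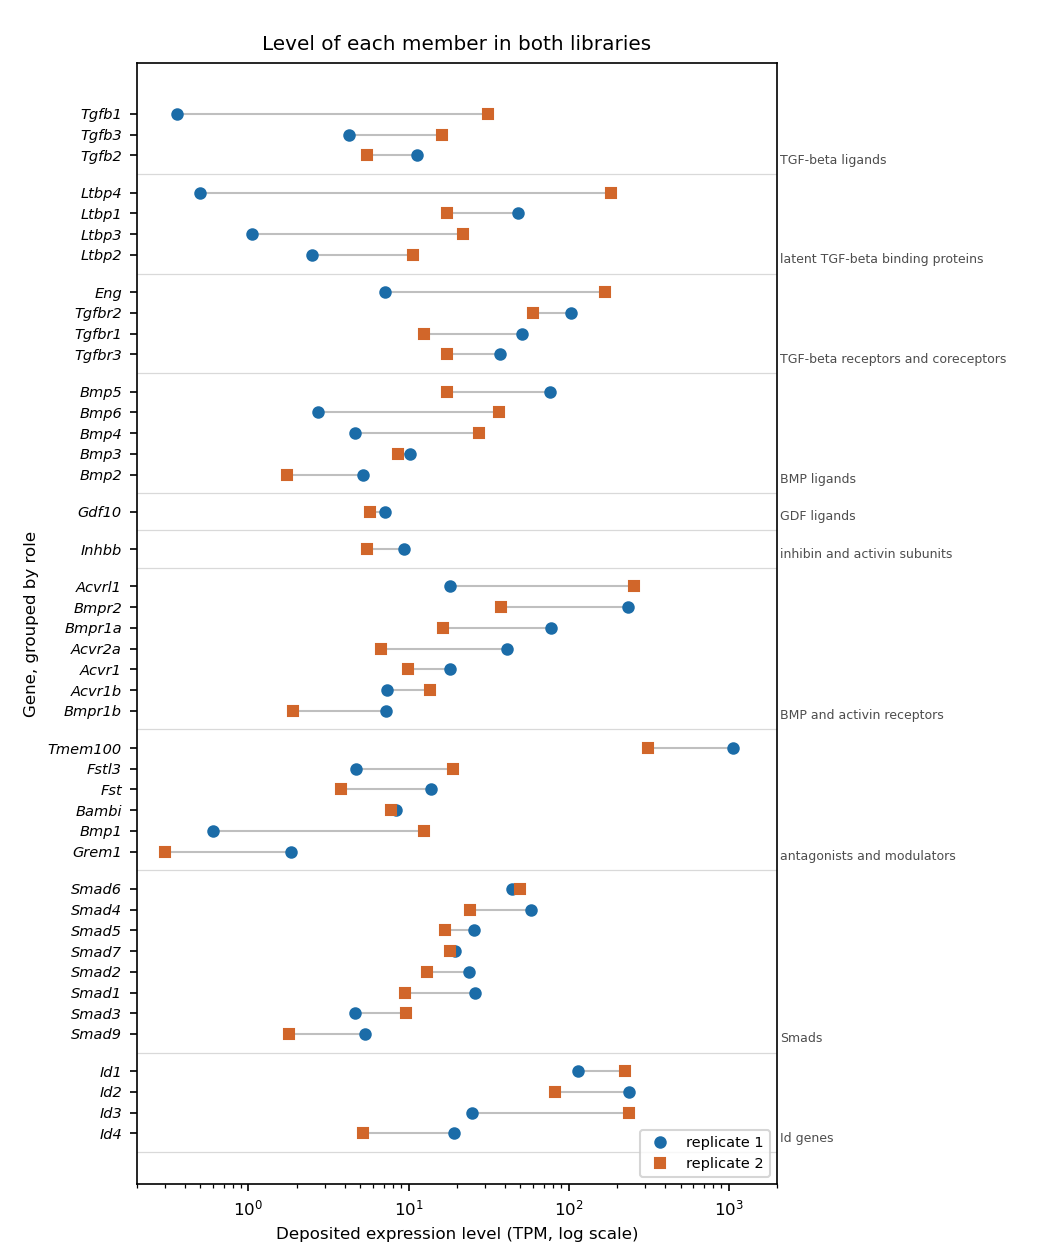
Deposited TPM (log scale) of 43 of the 44 genes whose mean TPM reached 1, in replicate 1 (circles) and replicate 2 (squares), grouped by role. Lines join the 2 libraries, and the widest gaps are at Ltbp4 (0.50 and 184 TPM) and Tgfb1 (0.36 and 31.5 TPM), whereas Smad6, Smad7 and Bambi lie nearly at the same level in both.

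The ratio between libraries was taken from expected counts scaled by the TMM method, as replicate 2 over replicate 1, with the 95% Clopper-Pearson interval, which covers counting error only. A gene is called different here when the ratio passes 2-fold. Genes whose mean TPM reached 1 were tested. Replicate 2 exceeded replicate 1 by over 2-fold for 15 of the 44 members tested (34.1%) and for 39.3% of all 14139 tested genes. It was over 2-fold below for 17 members (38.6%), beside 28.2% of all tested genes, and 12 lay within 2-fold. The median log2 ratio was -0.62 for the members and 0.19 for all tested genes. The median size of the log2 ratio, whatever its sign, was 1.52 for the members and 1.54 for all tested genes, so these genes were measured with about the same disagreement as the rest of the transcriptome.

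The 3 TGF-beta ligands did not keep their order between the libraries. Tgfb1 (chromosome 7, 25687002 to 25705077 on assembly GRCm38), the isoform best known in immune regulation and fibrosis, had 0.36 TPM in replicate 1 against 31.5 TPM in replicate 2. These values stand on 8 and 971 counts, and the scaled ratio was 95.2-fold higher in replicate 2 (interval 48.1 to 221). Tgfb3, which is needed for palate and lung development, was at 4.27 and 16.3 TPM, also higher in replicate 2, whereas Tgfb2 was at 11.4 and 5.49 TPM, within 2-fold by scaled counts. Tgfb2 was thus the highest of the 3 in replicate 1 and Tgfb1 the highest in replicate 2, and every pair among them changed its order. The summed level was 16.0 and 53.2 TPM.

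The latent TGF-beta binding proteins, most of which hold latent TGF-beta in the matrix, included the widest gap of all 64 genes. Ltbp4 (chromosome 7, 27305136 to 27337692), whose loss in mice disturbs lung elastic fibres, had 0.50 TPM in replicate 1 against 184 TPM in replicate 2. It had 3 counts in the former and 8452 in the latter, a ratio of 2211 with an interval of 756 to 10723. Ltbp3 was at 1.05 and 21.8 TPM and Ltbp2 at 2.50 and 10.7 TPM, both higher in replicate 2. Ltbp1 went the other way, with 48.0 TPM in replicate 1 against 17.3 TPM in replicate 2, 2.01-fold lower by scaled counts (interval 1.87 to 2.17, which includes 2-fold). Scaled by total counts its log2 ratio was -0.74, within 2-fold. The transcripts assigned also differed. For Ltbp1 a retained-intron transcript of 3277 bases held 91.6% of the gene's abundance in replicate 1 and 34.3% in replicate 2, and a coding transcript of 4870 bases held 2.44% and 35.2%. For Ltbp4, 93.0% of the abundance in replicate 1 was given to a retained-intron fragment of 550 bases, on those 3 counts, and 55.0% in replicate 2 to a coding transcript of 5118 bases. Ltbp1 therefore led this group in replicate 1, and Ltbp4 led it in replicate 2.

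The coding sequence of Ltbp4 is rich in G and C throughout, at 62.6% of 4803 bases, and it is shown because no other member differed so much. Its richest window of 180 bases, at chr7:27333372-27333551 on the minus strand in exon 1, has 78.3% GC, and its poorest, at chr7:27327703-27328280 across the junction of exons 7 and 8, still has 55%. The sequences are from the GENCODE transcript on GRCm38, 5′ to 3′ along the coding strand, and capitals mark G and C.
Ltbp4 richest window: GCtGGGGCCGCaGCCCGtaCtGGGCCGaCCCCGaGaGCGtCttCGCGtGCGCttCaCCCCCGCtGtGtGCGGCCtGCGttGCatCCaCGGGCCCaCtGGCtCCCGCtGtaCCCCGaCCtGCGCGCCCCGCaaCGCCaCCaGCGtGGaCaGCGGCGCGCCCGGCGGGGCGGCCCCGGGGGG
Ltbp4 poorest window: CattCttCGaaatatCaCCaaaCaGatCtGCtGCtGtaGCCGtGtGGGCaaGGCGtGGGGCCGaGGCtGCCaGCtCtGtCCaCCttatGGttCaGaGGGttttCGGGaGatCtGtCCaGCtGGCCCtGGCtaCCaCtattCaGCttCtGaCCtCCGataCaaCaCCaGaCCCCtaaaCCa

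Among the TGF-beta receptors and coreceptors, only Tgfbr1 was over 2-fold lower in replicate 2 by scaled counts, and only endoglin over 2-fold higher. Tgfbr2, the type II receptor (chromosome 9, 116084293 to 116175360), was at 103 and 59.5 TPM, within 2-fold by scaled counts. Tgfbr1, the type I receptor, was at 50.9 and 12.5 TPM, 3.74-fold lower in replicate 2 (interval 3.49 to 4.01), and the coreceptor Tgfbr3, betaglycan, was at 37.5 and 17.4 TPM. Eng (chromosome 2, 32646595 to 32682669) encodes endoglin, the endothelial coreceptor that works with ALK1. It had 7.15 TPM in replicate 1 against 170 TPM in replicate 2, from 184 and 8289 counts, 35.4-fold higher in replicate 2 (interval 30.5 to 41.1). It overlaps Fpgs on the opposite strand, at 0.28 and 10.5 TPM. Eng was the lowest of the 4 in replicate 1 and the highest in replicate 2. Its main transcript of 3403 bases held 70.1% and 23.0% of the abundance, and another of 3422 bases held 0% and 64.3%.

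BMP and activin receptors reached sums of 406 and 343 TPM, but from different genes. Acvrl1 (chromosome 15, 101128522 to 101145336), the endothelial type I receptor ALK1, had 18.2 TPM in replicate 1 against 255 TPM in replicate 2, from 680 and 11463 counts. That is 13.2-fold higher in replicate 2 (interval 12.2 to 14.3). Bmpr2 (chromosome 1, 59763400 to 59879014), the type II receptor of the BMP ligands, was at 235 and 37.9 TPM, from 33361 and 7604 counts, 5.59-fold lower in replicate 2 (interval 5.45 to 5.73). Bmpr2 was thus far above Acvrl1 in replicate 1 and far below it in replicate 2, although the 2 proteins act in the same endothelial receptor complex. The type I receptor Bmpr1a, at 78.0 and 16.4 TPM, and the activin type II receptor Acvr2a, at 41.1 and 6.74 TPM, were likewise lower in replicate 2. Acvr2a overlaps Orc4 on the opposite strand, which was at 193 and 33.0 TPM, and since the sources used here do not say whether counting used strand, the levels of Acvr2a and of other members that overlap such genes, among them Eng, Bmp6 and Tgfb3, are uncertain. Acvr1, the type I receptor ALK2, was at 18.1 and 9.90 TPM, within 2-fold. Acvr1b, the activin type I receptor, was at 7.35 and 13.6 TPM, 2.05-fold higher in replicate 2 with an interval of 1.81 to 2.33 that includes 2-fold. Its log2 ratio was 0.99 with DESeq2 size factors and 0.89 from TPM, within 2-fold in each. Bmpr1b was lower in replicate 2, at 7.20 and 1.90 TPM, and Acvr1c and Acvr2b had mean levels below 1 TPM, Acvr2b with 0 and 32 counts.

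Bmpr2 is shown beside Ltbp4 because its log2 ratio, with the prior of 0.5 counts, was the lowest of the members with at least 100 counts. That of Acvr2a was nearly the same, and without the prior Acvr2a was the lower by a very small margin. Its coding sequence has 46.9% GC over 3117 bases. Its richest window of 180 bases, at chr1:59870278-59870457 on the plus strand in exon 13, has 55.6% GC, about the level of the poorest window of Ltbp4. Its poorest, at chr1:59867337-59867516 in exon 12, has 38.3%. Capitals again mark G and C on the same GENCODE reference.
Bmpr2 richest window: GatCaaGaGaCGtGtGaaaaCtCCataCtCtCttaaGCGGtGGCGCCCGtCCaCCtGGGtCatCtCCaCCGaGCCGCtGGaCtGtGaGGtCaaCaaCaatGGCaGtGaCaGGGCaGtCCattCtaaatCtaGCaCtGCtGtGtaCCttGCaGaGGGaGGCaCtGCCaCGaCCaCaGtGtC
Bmpr2 poorest window: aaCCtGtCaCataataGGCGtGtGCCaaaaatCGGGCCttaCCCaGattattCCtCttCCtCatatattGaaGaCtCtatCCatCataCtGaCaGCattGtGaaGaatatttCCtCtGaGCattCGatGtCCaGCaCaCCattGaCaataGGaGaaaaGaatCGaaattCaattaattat

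The 10 BMP ligand genes gave nearly the same sum in both libraries, 99.8 and 93.1 TPM, again from different members. Bmp5 (chromosome 9, 75775364 to 75900310) had 76.4 TPM in replicate 1 against 17.3 TPM in replicate 2, 4.0-fold lower in replicate 2 (interval 3.72 to 4.30). Bmp6, which also regulates hepcidin in the liver, was at 2.73 and 36.8 TPM, 14.9-fold higher in replicate 2 (interval 11.7 to 19.3), from 68 and 1294 counts. It overlaps Txndc5 on the opposite strand, which was at 14.1 and 76.9 TPM. Bmp4, a ligand of lung branching (chromosome 14, 46383520 to 46390669), was at 4.60 and 27.7 TPM. Its transcript of 2064 bases held 100% and 32.1% of the abundance, and one of 1633 bases held 0% and 67.9%. Bmp5 therefore came first in replicate 1 and Bmp6 in replicate 2. Of the lower members, Bmp3 was at 10.2 and 8.59 TPM and Bmp2 at 5.22 and 1.75 TPM, and Bmp7 and Bmp15 had mean levels below 1 TPM. Bmp8a, Bmp8b and Bmp10 had 0 counts in both libraries, which allows up to 0.186 CPM (counts per 1000000) in replicate 1 and 0.175 CPM in replicate 2, for counting error only. Bmp10 is a product of atrial muscle, and it stood at 0 while Myl7 and Nppa were detected.

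The GDF ligands and the inhibin and activin subunits were the lowest groups. Gdf10, also called Bmp3b, was at 7.11 and 5.73 TPM, and no other of the 9 GDF genes had a mean TPM of 1. Gdf11 was at 0.97 and 0.60 TPM, and the stress-responsive Gdf15 had 0 and 28 counts. Inhbb, the activin B subunit, which adipocytes also make, was at 9.33 and 5.54 TPM, within 2-fold, beside the similar levels of Adipoq; the part of fat in it was not tested. Inha was at 0.07 and 0.69 TPM, Inhba had 0 and 4 counts, and Inhbc and Inhbe, which are made in the liver, had 0 counts in both libraries.

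Modulators outside the receptor complex were led by Tmem100 (chromosome 11, 90030348 to 90036508), at 1062 and 314 TPM, a mean of 688 ± 529 TPM (SD, n = 2). From 18853 and 7853 counts it was 3.06-fold lower in replicate 2 (interval 2.98 to 3.14). The BMP antagonist Grem1, gremlin, was at 1.85 and 0.30 TPM, also lower in replicate 2. Fstl3, which binds activin, was at 4.68 and 19.1 TPM, higher in replicate 2, whereas its relative Fst, follistatin, was at 13.9 and 3.80 TPM, lower. Bmp1, despite its name a metalloprotease that cleaves chordin and procollagen, was at 0.60 and 12.5 TPM, from 24 and 706 counts. Bambi, a pseudoreceptor without a kinase domain, was nearly level at 8.34 and 7.82 TPM. Nog, noggin, was at 1.00 and 0.42 TPM, on 17 and 10 counts.

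All 8 Smads were detected in both libraries, and 4 of them lay within 2-fold. The inhibitory Smad6 was at 44.1 and 49.5 TPM and the inhibitory Smad7 at 19.5 and 18.0 TPM, with log2 ratios of 0.31 and -0.0099. Smad4, the partner common to both branches, was at 58.2 and 24.0 TPM, 2.54-fold lower in replicate 2 (interval 2.36 to 2.74). Among the BMP-regulated Smads, Smad1 was at 26.1 and 9.48 TPM, Smad9 at 5.35 and 1.78 TPM, and Smad5 at 25.7 and 16.9 TPM. The first pair were over 2-fold lower in replicate 2 and Smad5 was within 2-fold. Of the TGF-beta-regulated Smads, Smad2 was at 23.8 and 13.0 TPM, within 2-fold, and Smad3 at 4.63 and 9.58 TPM, 2.29-fold higher in replicate 2 with an interval of 1.99 to 2.65 that includes 2-fold. In both libraries Smad2 was the higher of this pair, but by a narrow margin in replicate 2.

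The 4 Id genes, which encode helix-loop-helix proteins that lack a DNA-binding region and block their partners, split evenly. Id1 (chromosome 2, 152736251 to 152737410) had 114 TPM in replicate 1 against 224 TPM in replicate 2, 2.19-fold higher in replicate 2 (interval 2.03 to 2.36), and its log2 ratio from TPM was 0.98, within 2-fold. Id3 (chromosome 4, 136143497 to 136145755) was at 25.0 and 240 TPM, from 279 and 4066 counts, 11.4-fold higher (interval 10.1 to 13.0). Id2 (chromosome 12, 25093799 to 25097140) was at 237 and 82.0 TPM, 2.62-fold lower (interval 2.45 to 2.79), and Id4 was at 19.3 and 5.19 TPM, 3.36-fold lower (interval 2.72 to 4.18). Id2 was the highest of the 4 in replicate 1 and Id3 in replicate 2, and 3 of their 6 pairs changed order.

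Id2 and Id3 are compared in sequence because they are close relatives that differed between the libraries in opposite directions, a pair chosen after their values were seen. Their best matching stretch of 120 coding bases lies at chr12:25095783-25095902 on the minus strand for Id2 and at chr4:136144002-136144121 on the plus strand for Id3, in exon 1 of each. It matches at 86 bases and differs at 34, shown in capitals. Of the differing bases, 14 are at the third position of a codon. At 18 of them Id3 has G or C where Id2 has A or T, and at 7 the reverse, so the stretch holds 50.8% GC in Id2 and 60% in Id3.
Id2: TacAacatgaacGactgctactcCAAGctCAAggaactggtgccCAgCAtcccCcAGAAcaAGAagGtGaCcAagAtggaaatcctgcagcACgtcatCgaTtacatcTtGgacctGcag
Id3: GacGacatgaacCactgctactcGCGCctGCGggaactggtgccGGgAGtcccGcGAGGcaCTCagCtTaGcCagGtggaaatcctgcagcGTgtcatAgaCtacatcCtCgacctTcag

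The coding GC content did not order the 4 Id genes, however. It was 64.7% in Id1, 54.6% in Id2, 63.3% in Id3 and 71.2% in Id4, and Id4, the richest, was lower in replicate 2. The GC content of the 3′ untranslated region (3′ UTR) was 45.6% in Id1, 33.6% in Id2, 51.7% in Id3 and 37.0% in Id4. The 2 genes that were higher in replicate 2 had the GC-richer 3′ UTRs. For Id4 these values come from a reference transcript of 3849 bases, whereas the deposited transcript has 1660 bases. The 3′ UTR value of Id4 is therefore uncertain for the transcript that was counted.

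**Figure D2:**
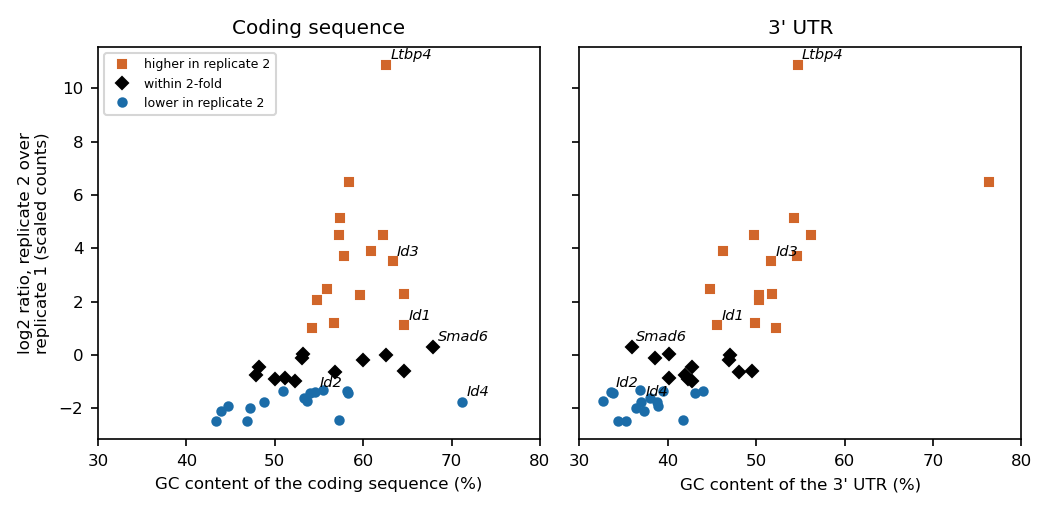
The log2 ratio of replicate 2 over replicate 1 against the GC content of the coding sequence (left) and of the 3′ UTR (right), for the 43 members with both. Squares are over 2-fold higher in replicate 2, circles over 2-fold lower and diamonds within 2-fold. Id4 and Smad6 lie at the GC-rich end on the left and among the AT-rich genes on the right. The reference transcript used for Id4 is longer than the deposited one.

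The same held across the members. Over the 43 with a coding main transcript, the log2 ratio had a Spearman correlation of 0.58 with coding GC content and 0.82 with the GC content of the 3′ UTR. With the GC content of the whole main transcript it was 0.84 over the 44 members, so the 3′ UTR alone did no better than the whole. Smad6 has 67.9% GC in its coding sequence and 35.9% in its 3′ UTR, and it did not differ over 2-fold. Inhbb, with 64.6% and 49.5%, was within 2-fold too, but its 3′ UTR is not AT-rich among the members. At similar 3′ UTR values, Smad3 (49.9%) and Ltbp3 (49.8%) were over 2-fold higher in replicate 2, and Tgfbr2 (48.0%) was within 2-fold. When each main transcript was cut into windows of 180 bases, taken every 10 bases, the poorest window lay in the 3′ UTR for 40 of 44 members. The place of the poorest window was not determined for the other tested genes, so this count has no background. The exceptions were Tgfb3, in its 5′ UTR, Bmp4 and Tgfb1, in their coding sequence, and Ltbp1, whose main transcript is noncoding.

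**Figure D3:**
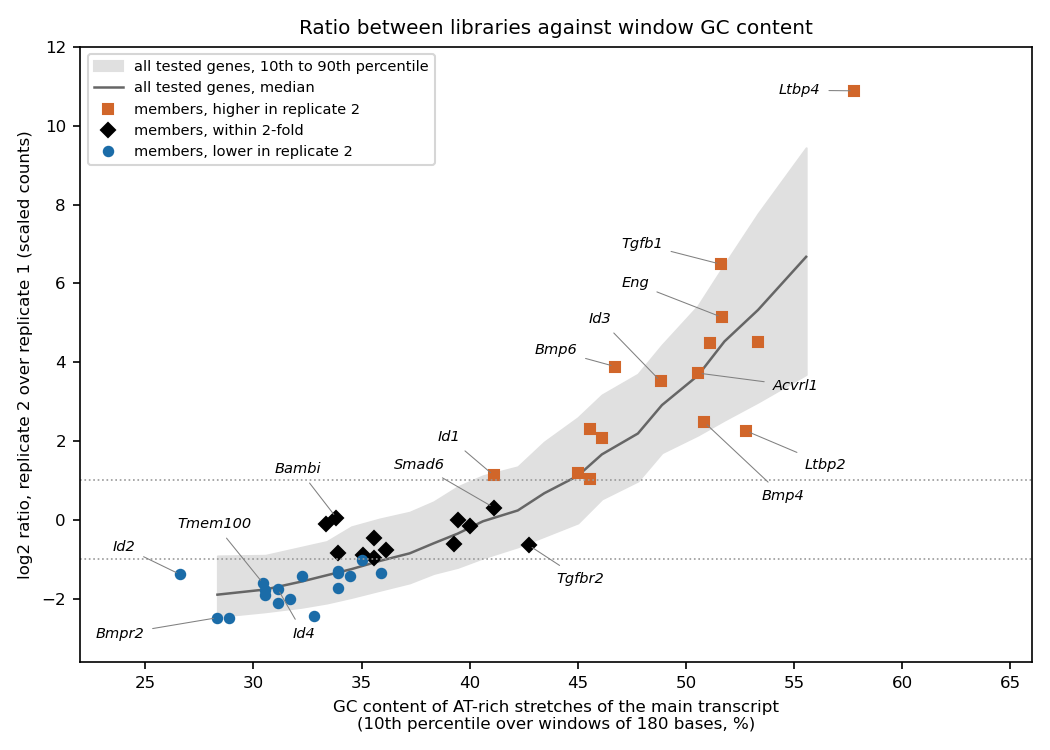
The log2 ratio of replicate 2 over replicate 1 against window GC content, the 10th percentile over windows of 180 bases of the main transcript. The grey band and line show the 10th to 90th percentile and the median over 14055 tested genes in classes of window GC, and dotted lines mark 2-fold. Members over 2-fold higher (squares) start at 41.1% and members over 2-fold lower (circles) end at 35.9%.

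Window GC content, the 10th percentile over those windows, separated the calls of the members. The 15 members higher in replicate 2 had 41.1% to 57.8%, with a median of 50.6%, and the 17 lower had 26.6% to 35.9%, with a median of 31.7%. The ranges do not overlap, and the 12 members within 2-fold lay from 33.3% to 42.7%, across both edges. This measure was chosen after seeing the data, and the ranges of the calls over all tested genes were not compared. The median log2 ratio over all tested genes rose from -1.90 in the class at 28.3% window GC content to 6.68 in that at 55.6%. Near the edges of the calls, its 90th percentile was 0.021 in the class at 35.8%. Its 10th percentile was -0.68 in the class at 42.2%. Few genes of any kind in these classes were thus past 2-fold the other way. Over the 44 members the Spearman correlation with the log2 ratio was 0.92 for window GC content and 0.84 for the GC content of the same main transcript. For the mean GC content of the gene's transcripts it was 0.80. Over all tested genes it was 0.90 for window GC content and 0.82 for this mean, so the relation was not particular to this pathway. The points are genes measured in the same 2 libraries, so they share depth and library preparation, and no p is given. Window GC content came from the reference transcripts, and 33 of the 44 main transcripts had the same length there as in the deposited tables.

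The trend over all tested genes was then subtracted. With the trend on mean GC content removed, 6 members were over 2-fold higher (22.6% of all tested genes were) and 20 over 2-fold lower (20.5%), 4 of them having turned direction. With the trend on window GC content removed, 35 of 44 members lay within 2-fold. There were 6 over 2-fold higher, beside 14.3% of all tested genes, and 3 over 2-fold lower, beside 11.7%. After subtraction of this window trend, which was not planned, the median size of the log2 ratio was 0.42 for the members and 0.55 for all tested genes. The members were thus above all tested genes under the planned trend and below them under the unplanned one. The receptors Acvrl1 and Bmpr2, which had differed in opposite directions, came to log2 values of -0.067 and -0.67, and Tmem100 to 0.060. Ltbp4 at 3.14, Tgfb1 at 2.08, Bmp6 at 2.03 and Id1 at 1.11 were higher both before and after subtraction, whereas Bambi at 1.37 and Bmp3 at 1.28 had been within 2-fold as measured. The 3 lower were Ltbp2 at -2.81 and Bmp4 at -1.47, both higher as measured, and Tgfbr2 at -1.09, within 2-fold as measured. The spread over all tested genes widened with window GC content. Its 10th to 90th percentile was -2.45 to -0.92 in the class at 28.3% and 2.15 to 5.43 in that at 50.6%. Bmp4, at 50.8% and 2.48 as measured, lay within the latter range. Ltbp2, at 2.26 as measured, lay below the 10th percentile of 2.99 in its nearest class, at 53.3%. Ltbp2 and Ltbp4 are relatives with window GC contents of 52.8% and 57.8%, and the pair ended on opposite sides of the trend. For 4 of the members off the trend, the reference transcript differed in length from the deposited one. The lengths were 3593 and 2410 bases for Bmp6 and 6548 and 3112 for Bmp3. For Tgfbr2 they were 3476 and 4710 bases, and for Bambi 5074 and 5040. Their window GC content may thus not be that of the transcript counted. The plot of ratios before and after subtraction shows each gene.

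**Figure D4:**
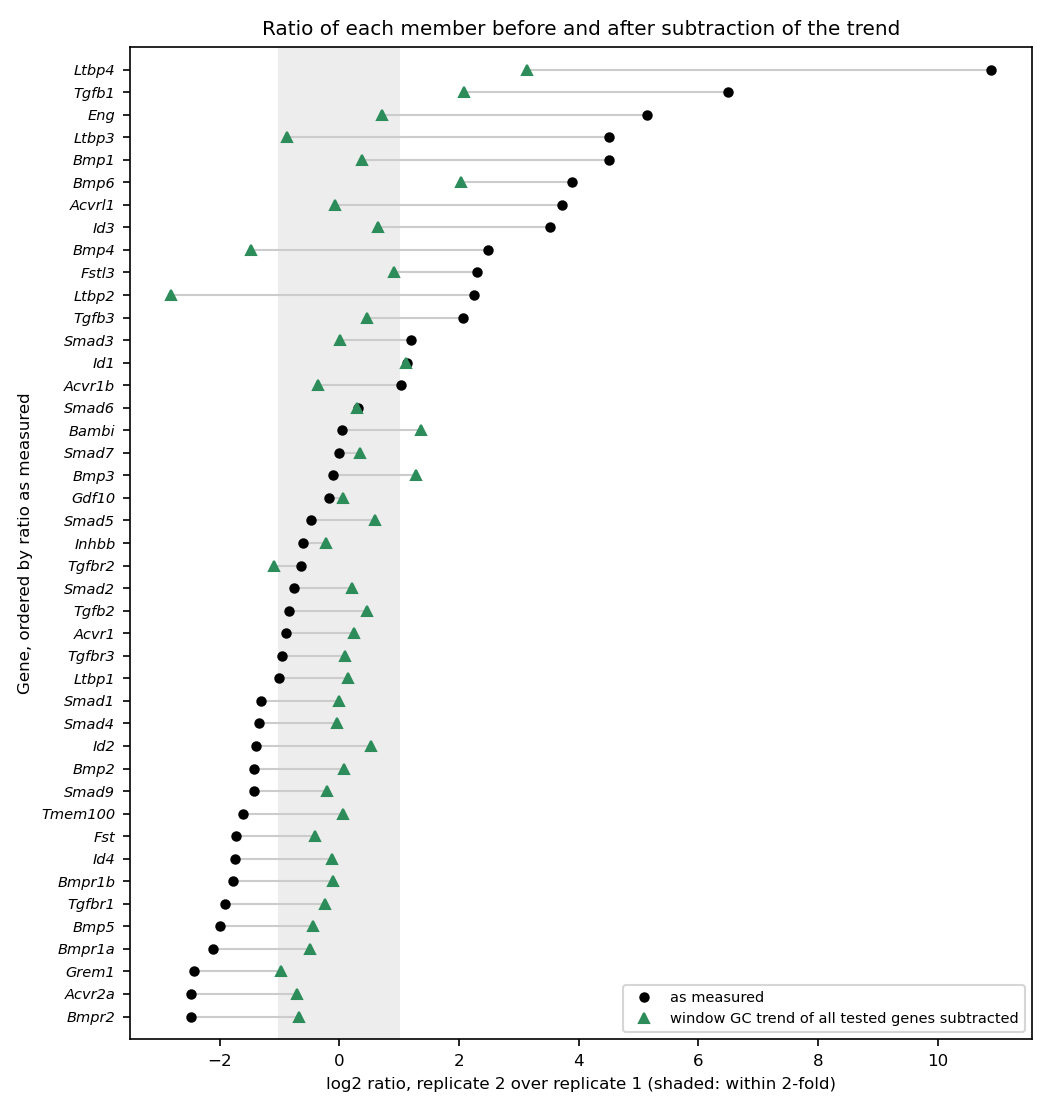
The log2 ratio of replicate 2 over replicate 1 for 43 of the 44 tested members, as measured (circles) and after subtraction of the window GC trend of all tested genes (triangles). The shaded zone is within 2-fold, and 12 circles and 34 triangles lie in it.

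The order of the roles depended on the library as well. Modulators, mostly Tmem100, held 45.1% of the members' TPM in replicate 1 and 18.2% in replicate 2. The Id genes held 15.6% and 26.7%, the BMP and activin receptors 16.0% and 16.6%, and the latent TGF-beta binding proteins 2.05% and 11.3%. Of the 946 pairs among the 44 members, 577 (61.0%) had the same order in both libraries. Of these pairs, 357 were over 2-fold apart the same way in both libraries and 169 were over 2-fold apart in opposite ways. Pairs of all tested genes were not counted, so whether such changes of order are particular to this pathway was not tested.

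**Figure D5:**
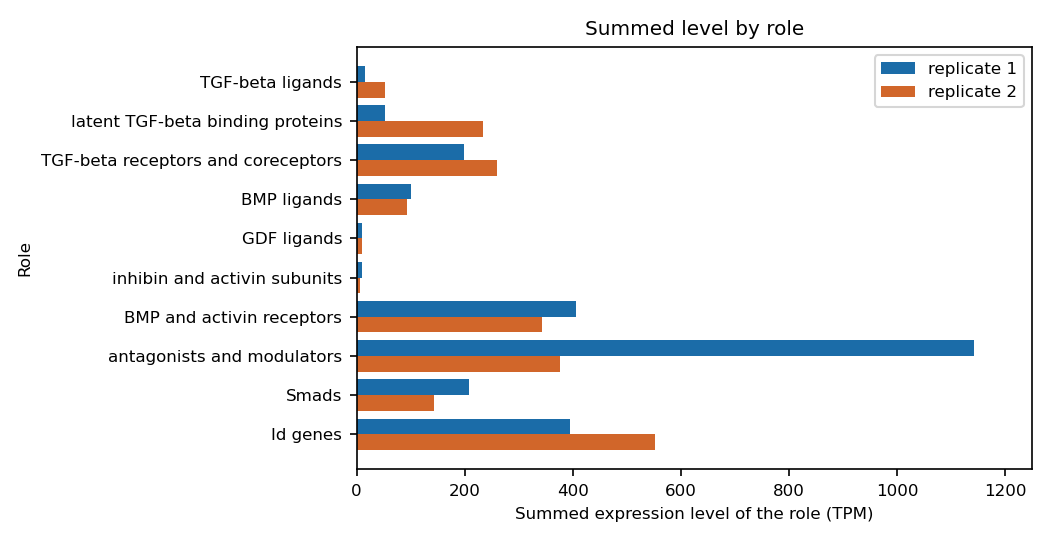
Summed TPM of the members of each role in replicate 1 and replicate 2. Modulators are at 1142 and 376 TPM, the Id genes are at 394 and 551 TPM and the BMP ligands at 99.8 and 93.1 TPM.

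Of 45 further genes of the same pathways, from a list of other ligands, antagonists, activators of latent TGF-beta, cofactors and targets, 31 were detected in both libraries. Of the 36 tested, 13 were over 2-fold higher in replicate 2, 10 lower and 13 within 2-fold, with a median log2 ratio of 0.12. Over all tested genes, 39.3% were higher and 28.2% lower, with a median of 0.19. The 6 highest by mean level were Ccn2, Twsg1, Nbl1, Thbs1, Fstl1 and Itgav. Ccn2, a matrix protein and TGF-beta target, was at 172 and 104 TPM. Twsg1, a BMP-binding protein, was at 196 and 60.6 TPM, and the BMP antagonist Nbl1 was at 2.49 and 190 TPM. Thbs1, which activates latent TGF-beta, was at 88.5 and 30.4 TPM, Fstl1 at 56.4 and 46.1 TPM and Itgav, a subunit of integrins that release TGF-beta, at 68.4 and 23.4 TPM. Of these 6 only Nbl1 was over 2-fold higher in replicate 2, and Ccn2 and Fstl1 were within 2-fold.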

How the data were processed

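Polyadenylated lung RNA of 1 mouse was measured in 2 technical replicate libraries. Assembly mm10 (per the labels) and annotation M4 (per a text deposited with each table) were used by the authors. The sources used here do not name the aligner or quantifier. The authors' expected counts estimate reads per gene, per the file headers, and were rounded to whole numbers. TPM values, usual estimate and posterior mean, were deposited by the authors, as was the percent of a gene's abundance held by each transcript. Effective lengths in bases were deposited by the authors too. Totals were 16104423 and 17110871 counts, so 3 counts, the floor used for a gene at 0, equal 0.186 and 0.175 CPM. No columns belong to other samples (0 found).

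Members were matched by gene identifier. Symbols, positions and sequences came from GENCODE M21 on GRCm38. Libraries were scaled by TMM (edgeR 4.0.16, R 4.3.3; factors 0.913 and 1.10), with a prior of 0.5 counts, for genes whose mean TPM reached 1. Intervals are exact Clopper-Pearson at 95% and cover counting error only. GC trends are lowess fits with a span of 0.3. DESeq2 1.42.0 gave an alternative scaling. Other software was matplotlib 3.10.9, statsmodels 0.14.6, scipy 1.17.1, pandas 2.3.3, numpy 2.4.6 and Python 3.11.15.

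Members and lists were chosen with earlier results of these data known. Values were to be given for members with a mean TPM of at least 10, the 3 highest of each role, and the 5 highest and 5 lowest ratios with at least 100 counts. Bmp2, Bmp3, Bambi, Fst, Ltbp2, Smad3, Smad9, Bmpr1b, Nog and the members at low level were named after their values were seen. Some items that met these rules are withheld: they enter the counts and sums but are not reported here by name.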

Additional observations from a re-analysis of the deposited data

How the results depend on the processing

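With 1 animal and 1 library on each side, the data limit every ratio to these 2 libraries, and members of few counts (Ltbp4 with 3, Tgfb1 with 8 in replicate 1) have wide intervals. Counts of members over 2-fold higher and lower in replicate 2 were 15 and 16 with total-count scaling (42.4% and 22.4% of all tested genes), 14 and 18 with DESeq2 size factors (38.8% and 29.1%), 13 and 19 from TPM (35.1% and 32.9%), 15 and 17 with the floor of 3 counts, 12 and 12 of 31 at a mean TPM of at least 10, and 13 and 16 when the interval had to pass 2-fold. Without the filter, 23 of 59 were higher and 21 lower, and the median log2 ratio was -0.17. The share over all genes was not computed for the floor, the higher TPM limit, the interval or the lack of a filter. Those counts therefore have no background. The floor replaces only counts of 0, which no tested member had, so the floor itself could change no call. Calls of Ltbp1 (total counts), Acvr1b (DESeq2 and TPM) and Id1 (TPM) were lost, and Tgfbr3 (DESeq2 and TPM) and Tgfb2 (TPM) became over 2-fold lower. The median was -0.36 with total counts and -0.77 from TPM. All tested genes had medians of 0.19 under TMM, 0.45 under total counts, 0.15 under DESeq2 and -0.09 from TPM. With the mean GC trend subtracted, 6 members were higher and 20 lower, and the median was -0.80. Id1 then reversed to -1.44, Acvrl1 to -0.56, Fstl3 to -1.47, Ltbp3 to -0.82, Acvr1b to -0.75, Smad3 to -1.20 and Ltbp2 to -2.02. With the window GC trend subtracted, an alternative chosen after seeing the data, 6 were higher and 3 lower, with a median of 0.063. Tmem100 then reversed to 0.060, Id2 to 0.53, Acvrl1 to -0.067, Ltbp1 to 0.14, Bmp4 to -1.47, Ltbp3 to -0.88, Acvr1b to -0.35, Ltbp2 to -2.81 and Bmp2 to 0.081. Why the trends move these values was not tested. Members detected in both libraries numbered 43 at a TPM of 0.5, 29 at a TPM of 5 and 41 from posterior means. In replicate 2 alone, without replicate 1, 45 were detected, and in replicate 1 alone, without replicate 2, 43. The summed level was 2171 TPM from posterior means, 2068 TPM without replicate 1 and 2535 TPM without replicate 2.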
